A study of Mus musculus with 13 samples.

Results

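The MS4A family, named for proteins that span the membrane several times with both ends inside the cell, was followed across cell classes in pooled single-cell libraries from a study of the mouse lung. The 10 genes described here, Ms4a1, Ms4a2, Ms4a3, Ms4a4b, Ms4a4c, Ms4a6b, Ms4a6c, Ms4a6d, Ms4a7 and Ms4a8a, were chosen by symbol from the 31053 genes of the matrix, which lists 19 genes whose symbol starts with Ms4a. Values are counts of unique molecular identifiers (UMIs, each the tag of 1 captured RNA molecule) in the 33618 of 37344 barcodes with at most 10% of their UMIs in mitochondrial (mt-) genes.

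By title, 4 of the 13 samples are single-cell samples of whole lung, 1 each for Asthma (by ovalbumin), PPE-emphysema, PPE-recovery and Control, where PPE is porcine pancreatic elastase. The study's methods give C57BL/6 mice and 1 mouse per group for the single-cell part. Asthma mice were sensitized and challenged with ovalbumin, PPE-emphysema mice and controls received repeated weekly instillations into the trachea, and PPE-recovery mice a single instillation followed by a longer wait. Ages, and what the controls received in place of elastase, were not found in the labels or methods. The other 9 samples (3 each titled Acute, Con and emphysema) have the groups of the study's bulk sequencing, and no separate file of theirs was analysed here. The barcodes carry 7 library numbers and no group name, so the group of each library is unknown. The matrix counts as 1 sample without replicates, no disease group was compared and no test was run.

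MS4A genes sit in 1 cluster and are known above all from blood cells. The best known are Ms4a1, which encodes the B cell antigen CD20, and Ms4a2, which encodes the beta chain of FceRI, the high-affinity receptor for IgE on basophils and mast cells. Ms4a4b is known from T cells, where its product associates with the receptor GITR (Tnfrsf18). Several Ms4a6 genes, Ms4a7 and Ms4a8a are known from monocytes and macrophages. All 19 genes lie on chromosome 19, between 10962293 and 11640851 (GRCm38, GENCODE M21), a stretch of 678559 bases.

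The libraries were not alike. Libraries 1, 2, 3 and 7 held between 8141 and 28830 UMIs per 1000000 UMIs (CPM) of the epithelial transcripts Sftpc and Scgb1a1 together. In libraries 4, 5 and 6 these lay between 0.198 and 0.574 CPM, and hemoglobin transcripts took between 353436 and 406473 CPM, against 96.3 to 310 in the others. The first are called lung-transcript libraries and the second hemoglobin-rich libraries here, and the second go against the labelled tissue by these markers. The median depth of kept barcodes lay between 5272 and 9114 UMIs per library, but the lowest depth differed by library kind. No kept barcode of a hemoglobin-rich library was below 3439 UMIs, while every lung-transcript library reached down to 501 or fewer. Shallow barcodes were thus absent from the hemoglobin-rich libraries, which listed 3000, 5000 and 5000 barcodes before the mt- limit. The effect of this on their classes and on contrasts between library kinds was not tested. Across libraries, 153 barcode sequences occurred in more than 1 library, at most 17 of them in any pair. Scrublet, a doublet caller, marked between 0.757% and 5.63% of the barcodes in lung-transcript libraries and at most 0.307% in the hemoglobin-rich ones, where it cannot be said to have worked.

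Barcodes were clustered with the Ms4a genes left out, and clusters were named from marker lists, always as X-like. Of 56 clusters, 53 were named and fell into 25 classes, which left 219 barcodes unnamed. The level of a gene in a class is its share of all UMIs of the class, in CPM, with an exact 95% Poisson interval. All libraries are summed unless a library or library kind is named. Hemoglobin-rich libraries gave 3627 of the 5027 B cell-like and 1194 of the 2091 classical monocyte-like cells, and 0 of the alveolar macrophage-like cells. Intervals reflect counting error alone, not the spread between mice.

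Promoters are shown first for 5 members whose levels are compared below. They come from RefSeq on GRCm38.p6, which listed 8 of the 10 members in the table used here (not Ms4a1 and Ms4a6d), and each is the 250 bases before the RefSeq start, read 5′ to 3′ on the strand of the gene. For Ms4a4c and Ms4a6b that start lies inside the GENCODE span of the gene. Capitals mark matches, on either strand, to 3 short words: AGATAA, a word bound by GATA factors, GAGGAA, a word bound by PU.1 and its relatives, and GAAANNGAA, a word of interferon regulatory factor sites. Ms4a2 (chr19:11623720-11623969, minus strand) is shown for its 3 matches to AGATAA, which read TTATCT where they lie on the other strand. The neighbours Ms4a4b (chr19:11443308-11443557, plus strand) and Ms4a4c (chr19:11407411-11407660, plus strand) are shown because their windows are much alike while their levels were not. Ms4a6b (chr19:11518309-11518558, plus strand) and Ms4a6c (chr19:11469118-11469367, plus strand) are shown because they share the same filled-in word.
Ms4a2: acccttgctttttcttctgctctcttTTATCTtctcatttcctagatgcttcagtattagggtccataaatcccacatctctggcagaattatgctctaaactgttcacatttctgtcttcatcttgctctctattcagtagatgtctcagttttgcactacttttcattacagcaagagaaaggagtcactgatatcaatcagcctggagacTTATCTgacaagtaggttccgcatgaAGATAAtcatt
Ms4a4b: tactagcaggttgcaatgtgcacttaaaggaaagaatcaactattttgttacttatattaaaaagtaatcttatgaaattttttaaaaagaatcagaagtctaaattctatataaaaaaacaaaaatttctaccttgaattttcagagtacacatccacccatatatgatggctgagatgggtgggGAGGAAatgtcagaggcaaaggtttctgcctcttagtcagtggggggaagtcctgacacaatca
Ms4a4c: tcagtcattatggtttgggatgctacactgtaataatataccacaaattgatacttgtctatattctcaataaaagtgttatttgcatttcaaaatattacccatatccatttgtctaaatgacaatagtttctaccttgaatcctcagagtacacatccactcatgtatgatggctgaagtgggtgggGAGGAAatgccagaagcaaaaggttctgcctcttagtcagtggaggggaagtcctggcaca
Ms4a6b: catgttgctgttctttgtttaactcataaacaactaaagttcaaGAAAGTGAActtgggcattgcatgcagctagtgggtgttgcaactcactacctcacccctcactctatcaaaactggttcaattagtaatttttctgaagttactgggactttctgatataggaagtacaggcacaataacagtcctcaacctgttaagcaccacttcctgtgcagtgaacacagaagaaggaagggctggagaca
Ms4a6c: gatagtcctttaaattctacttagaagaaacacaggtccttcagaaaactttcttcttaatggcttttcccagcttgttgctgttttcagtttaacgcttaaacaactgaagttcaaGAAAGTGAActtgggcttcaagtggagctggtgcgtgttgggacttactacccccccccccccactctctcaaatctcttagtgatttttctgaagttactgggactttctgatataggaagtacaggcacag

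The Ms4a4b and Ms4a4c windows were identical at 188 of 263 aligned positions (71.5%), and both held GAGGAA, at 64 to 59 and at 61 to 56 bases before the start. Aligned end to end in the same way, Ms4a6b and Ms4a6c were identical at 51.9% of positions, and the windows of unlike members, Ms4a2 with Ms4a4b and Ms4a2 with Ms4a6c, at 46.0% and 48.3%. The printed Ms4a6b and Ms4a6c windows also share long runs of letters, around the filled-in word among them, at shifted distances from the start. An end-to-end alignment penalizes such shifts, so 51.9% does not measure that likeness. GAAANNGAA lay 206 to 198 bases before the start of Ms4a6b and 133 to 125 before that of Ms4a6c, and Ms4a7, listed with 2 starts, held it once before each, on the same strand before 1 and on the other strand before the other. In Ms4a2, AGATAA lay 11 to 6 bases before the start, with reversed matches at 37 to 32 and 224 to 219. Over 32851 RefSeq promoters of the same length, GAGGAA was found in 23.3%, AGATAA in 9.99% and GAAANNGAA in 7.13%, and 29 promoters (0.0883%) held AGATAA at least 3 times. Of the 8 members listed, 2 held GAGGAA, 1 held AGATAA and 3 held GAAANNGAA. A match is a description of letters and not a binding site.

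Of the 10 members, 5 had their highest level in a monocyte, macrophage or dendritic cell class, 2 in T or NK cell-like cells, 1 in B cell-like cells and 2 in the basophil or mast cell-like class, as the heat map of class levels shows. A gene was called restricted where its CPM in the highest class was at least 4 times that in the next. Over classes 2 of the 10 members were called, Ms4a2 and Ms4a3, against 11.1% of the 16325 genes with at least 50 UMIs. When the classes were joined into 11 lineages, 6 of 10 were called, Ms4a1, Ms4a2, Ms4a3, Ms4a4b, Ms4a7 and Ms4a8a, against 17.8% of the same genes. The median fold of the highest over the next was 2.42 for members and 1.33 for all genes over classes, and 6.59 and 1.41 over lineages. For the 3 other Ms4a genes with at least 50 UMIs it was 2.26 over classes and 3.44 over lineages. The members were chosen with earlier results of these data known, so these gaps are a description and no test. Ms4a3 reached 50 UMIs only through 2 barcodes described below. The 2 calls over classes rest on few UMIs, 336 for Ms4a2 and 149 for Ms4a3. With at least 500 UMIs asked of a gene, 0 of 8 members were called over classes and 4 of 8 over lineages, against 7.24% and 12.3% of genes. The lineage call of Ms4a8a was against 7 UMIs in eosinophil-like cells, with a fold of 6.19 whose interval (3.0 to 15.4) crosses the limit, and was lost as a mean over libraries and with at most 5% of mt- UMIs. In lung-transcript libraries alone 2 of 10 were called over classes and 7 of 10 over lineages, with Ms4a6b added, against 10.6% and 17.5% of genes. In hemoglobin-rich libraries alone the counts were 1 and 6 of 9, against 4.05% and 8.17% of genes, and the call over classes there was Ms4a2 at 0.750 CPM in T cell-like cells, since the basophil or mast cell-like class had too few cells to enter.

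**Figure D1:**
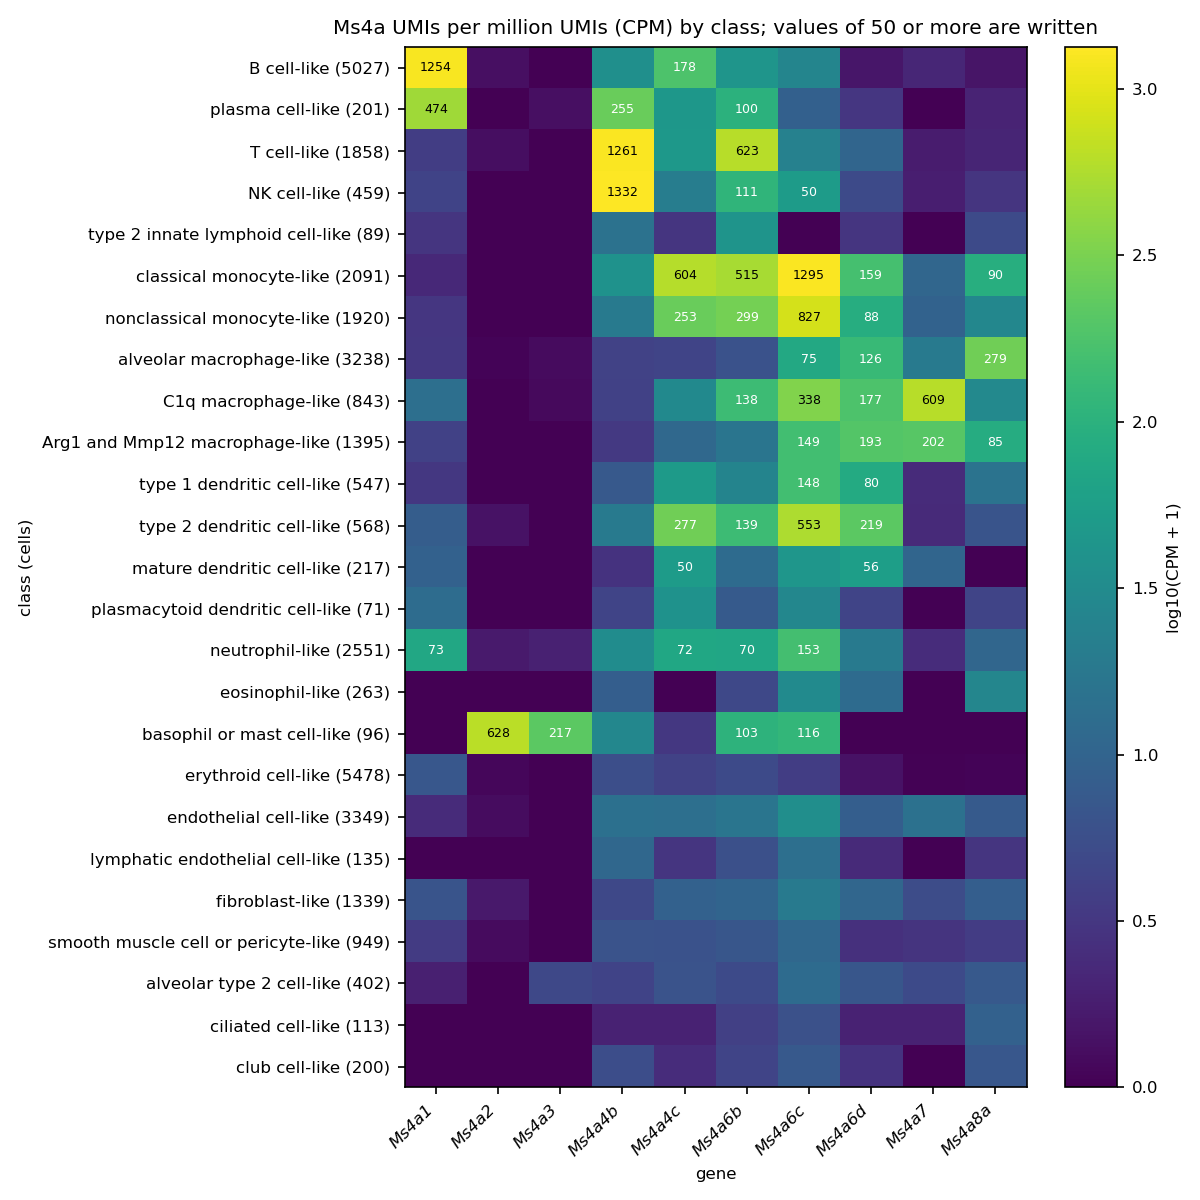
Levels of the 10 members (columns) in the 25 classes (rows, with cells), coloured by log10(CPM + 1), with all libraries summed and values of 50 CPM or more written in. Ms4a1 stood out in B cell-like cells (1254 CPM), Ms4a4b in NK and T cell-like cells (1332 and 1261) and Ms4a6c in classical monocyte-like cells (1295), while the epithelial and erythroid rows held no value of 50 CPM or more.

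**Figure D2:**
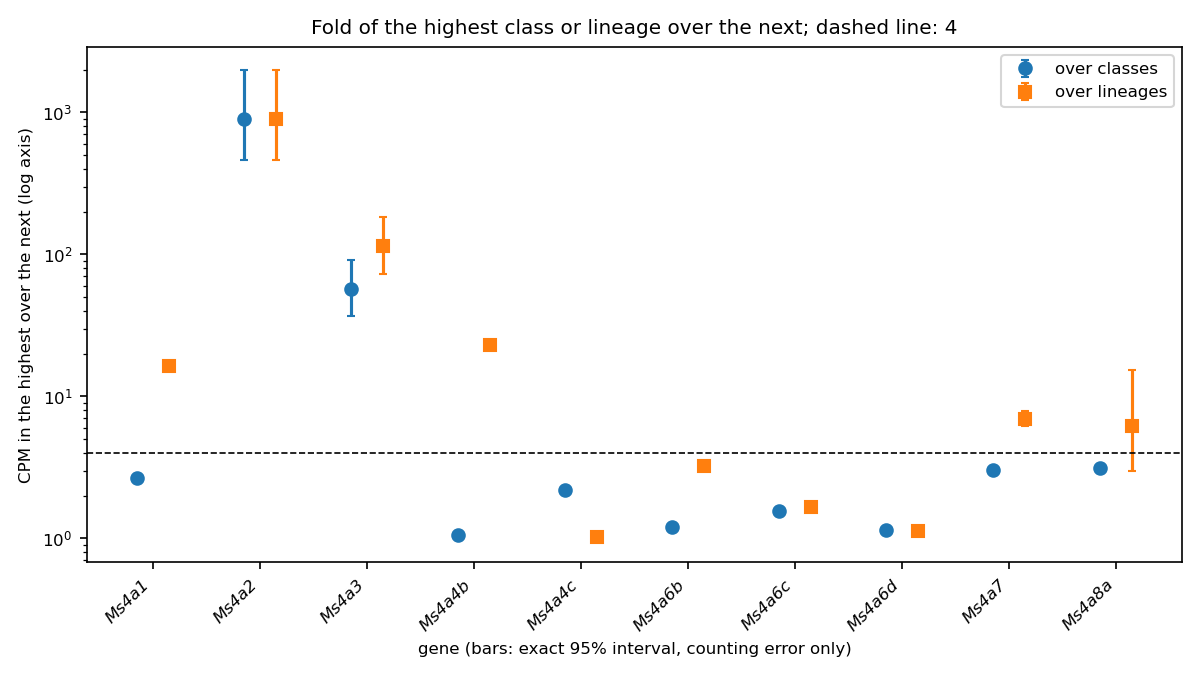
Fold of the highest class (or lineage) over the next for each member, on a log axis, with exact 95% intervals and a dashed line at 4. Ms4a2 (894) and Ms4a3 (57.2) lay above the line over classes, and 6 members lay above it over lineages, against 11.1% and 17.8% of genes.

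Ms4a1, which encodes the B cell surface antigen CD20, was highest in B cell-like cells at 1254 CPM (1241 to 1266, 5027 cells). Plasma cell-like cells followed with 474 CPM and neutrophil-like cells with 73.2. Among libraries the level in B cell-like cells ran from 990 to 1893 CPM with a median of 1123, and that in plasma cell-like cells from 167 to 1138 over 6 libraries. B cell-like cells were above plasma cell-like cells in every library with at least 10 of each except library 3, where plasma cell-like cells had 1138 CPM and B cell-like cells 990. The fold over plasma cell-like cells was 2.65 (2.51 to 2.80), under the limit of 4, or 1.40 on the log2 scale. That log2 ratio was 1.99 without barcodes called by Scrublet, 0.49 after thinning each cell to 1500 UMIs and 4.64 with at most 5% of mt- UMIs. The B lineage as a whole had 16.3 times the level of neutrophil-like cells (15.2 to 17.4).

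The classes next in line hold B cell markers. The plasma cell-like class is cluster 30, 201 cells in which 7 of 7 B cell markers and 6 of 6 T cell markers were found in at least 10% of cells. The T cell list summed to 572 CPM there against 4175 in T cell-like cells. Among the neutrophil-like clusters, cluster 35 (126 cells, 112 of them in hemoglobin-rich libraries) had 795 CPM of Ms4a1 and 7 of 7 B cell markers, summing to 6663 CPM against 10864 in B cell-like cells. The B cell list summed to 155 and 172 CPM in the neutrophil-like clusters 7 and 14. The part of such mixed barcodes in the levels was not tested. Leaving clusters 23, 30, 32 and 35 out, a choice made after the data were seen, removes the whole plasma cell-like class, and the next class for Ms4a1 is then C1q macrophage-like cells at 13.0 CPM.

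Within the B cell-like class Ms4a1 was uneven. Cluster 18, led by Zbtb32 and Fcrl5, had 1801 CPM (1769 to 1832). Cluster 2, the largest, with Ighd, Fcer2a and Cr2, had 1209, and cluster 16, with Ccr7 and Cxcr5, had 897 (861 to 934). Clusters 28 and 40 were lower, at 595 and 558 CPM, with overlapping intervals. Ms4a1 was found in 96.7% of B cell-like cells and in 77.3% after each cell was thinned to 1500 UMIs. In T cell-like cells, which should lack it, the shares were 1.72% and 0.383%, at median depths of 5066 UMIs for B and 6292.5 for T cell-like cells.

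Partners of CD20 differed in their classes. Cd79b, a chain of the B cell receptor, had 1717 CPM in B cell-like and 694 in plasma cell-like cells, and is among the markers that named the class. Cr2, a complement receptor of B cells, had 165 and 38.5 CPM, 4.28-fold apart. Cd81, a tetraspanin that joins it on B cells, was not particular to B cells here, with 181 CPM in the B lineage and 1324 in fibroblast-like cells.

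Ms4a2, the FceRI beta chain, was the member held most closely to 1 class. It had 628 CPM (556 to 705) in the 96 basophil or mast cell-like cells and 0.702 CPM in neutrophil-like cells, the next class, a fold of 894 (464 to 1976). The neutrophil-like value was 9 UMIs in 2 of 2551 barcodes. The eosinophil-like class, 263 shallow cells, had 0 UMIs of Ms4a2, which allows a level of up to 11.4 CPM. Of the 336 UMIs of Ms4a2, 281 (83.6%) lay in the 96 basophil or mast cell-like cells. In the 3 libraries with at least 10 such cells, Ms4a2 had 652, 967 and 394 CPM (libraries 1, 2 and 3). Libraries 4 to 7 had 1, 8, 6 and 8 such cells and 536, 647, 575 and 681 CPM, within the span of the first. The low end of that span, library 3, includes a progenitor barcode described below. It held 42883 of the 124313 UMIs of the class there and 0 of Ms4a2. Without barcodes with granulocyte progenitor markers the class had 694 CPM of Ms4a2. Both of its clusters were high, at 687 and 556 CPM, and no other cluster passed 3.06.

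The receptor's other chains differed in reach. Fcer1a, the IgE-binding alpha chain, had 775 CPM in the class and 1.55 in T cell-like cells, and 82.6% of its UMIs lay in the class. Fcer1g, the gamma chain that many Fc receptors share, was highest in nonclassical monocyte-like cells at 3288 CPM, and the basophil or mast cell-like class held 0.259% of its UMIs. Of the 96 cells, 80 had a UMI of Ms4a2, 85 of Fcer1a, 91 of Fcer1g and 75 of all 3 chains. Outside the class 21 cells had Ms4a2, and 9 of these had Fcer1a too. Thinned to 1500 UMIs, 67.4% of the cells of the class had a UMI of Ms4a2 and 0 of 3199 alveolar macrophage-like cells did, which allows up to 0.115% of thinned cells by the exact interval. Before thinning the shares were 83.3% and 0.0926% (3 of 3238 cells). The median depths were 4163.5 and 14953.5 UMIs. Fcer1a was not among the markers that named the class, although it was not kept out of the clustering as the Ms4a genes were.

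Ms4a3, which encodes HTm4, a protein of blood cell progenitors, rested on 2 barcodes. It had 149 UMIs in 24 barcodes. Barcodes with at least 3 of 5 granulocyte progenitor markers numbered 8, and 2 of these held 122 of the UMIs (81.9%), both in library 3. The first, with 42883 UMIs, had 96 of Ms4a3, 314 of Mpo, 487 of Elane, 479 of Prtn3 and 334 of Ctsg, the enzymes of early neutrophil granules. It had no UMI of the basophil genes Mcpt8, Cpa3, Gata2, Ms4a2 and Fcer1a, and 2 of Hdc, which is also on the list that named the class. Clustering nevertheless put it with the basophil or mast cell-like cells. The second, with 65740 UMIs, had 26 of Ms4a3 and 209 of Mpo beside 3624 of Sftpc, and fell in an alveolar type 2 cell-like cluster.

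Those barcodes set the level of Ms4a3 and its call. The basophil or mast cell-like class stood at 217 CPM and alveolar type 2 cell-like cells at 3.79, a fold of 57.2 (36.8 to 91.9). By library the class had 0, 13.4 and 772 CPM in libraries 1, 2 and 3. Without the 8 barcodes the class was still the highest, at 2.47 CPM on 1 UMI against 0.936 in neutrophil-like cells. Ms4a3 then fell under the 50 UMIs asked of a gene. This left 1 member called over classes and 5 over lineages, of 9, against 11.1% and 17.9% of genes. Without library 3 the counts were the same, against 10.9% and 17.3% of genes. The other 22 barcodes had at most 2 UMIs each, 27 in all. Of these barcodes, 9 were alveolar macrophage-like and 7 lay in the neutrophil-like cluster 14 with 412 to 981 UMIs of Ngp, a gene of secondary granules. Cdkn3, a phosphatase that HTm4 is known to bind, was highest in type 1 dendritic cell-like cells at 27.5 CPM, with 19.8 in plasma cell-like cells.

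Ms4a4b, a T cell gene, was shared by NK and T cell-like cells. NK cell-like cells had 1332 CPM (1287 to 1378, 459 cells) and T cell-like cells 1261 (1242 to 1280, 1858 cells), a fold of 1.06 (1.02 to 1.10). By library NK cell-like cells ran from 900 to 1580 CPM with a median of 1190, and T cell-like cells from 700 to 1845 with a median of 1328. The libraries overlapped, and NK cell-like cells were the highest class in 2 of 7. The order of the pair therefore did not hold against the spread of libraries, and without library 1 the log2 ratio of NK over T cell-like cells turned from 0.08 to -0.05. Summed over T and innate lymphoid classes the level was 1235 CPM, 23.1 times that of the B lineage at 53.3.

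The hemoglobin-rich libraries were higher for Ms4a4b in T cell-like cells, at 1399 to 1845 CPM against 700 to 1328 in the lung-transcript libraries, and the ranges did not overlap. Those of Ms4a4c and Ms4a6c in T cell-like cells did not overlap either, while those of the other members did. The share of all genes without overlap was not computed. In NK cell-like cells the Ms4a4b ranges overlapped. The T cell-like clusters that made up the class also differed between libraries. Cluster 52, led by Ccr4 and Tnfsf11, held 266 CPM, and 117 of its 143 cells came from library 1, which had the lowest T cell-like level.

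Within T cell-like cells Ms4a4b and Ms4a6b followed subset. The cluster with Gzmk and Cd8a (cluster 21), for which the NK cell marker list scored highest, had 1564 CPM of Ms4a4b (1529 to 1600). The one with Lef1 and Tcf7 (cluster 11), genes of naive T cells, had 1343. Cd8a was among the leading genes of cluster 11 too. Regulatory T cell transcripts (Foxp3, cluster 55) went with 204 CPM (156 to 263), and cluster 53, with Tcrg-C1 and Trdc, genes of the gamma-delta T cell receptor, with 104. Type 2 innate lymphoid cell-like cells had 14.1 CPM. The spread between these clusters was far above their counting error, as the plot of lymphoid clusters shows. Ms4a6b, a close relative also known from T cells, kept the gap between the same groups: 752 CPM in cluster 11, 603 in cluster 21, 279 in cluster 55, 157 in cluster 53 and 40.4 in type 2 innate lymphoid cell-like cells. NK cell-like cells, near the top for Ms4a4b, had 111 CPM of Ms4a6b (98.3 to 125), under every T cell-like cluster.

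**Figure D3:**
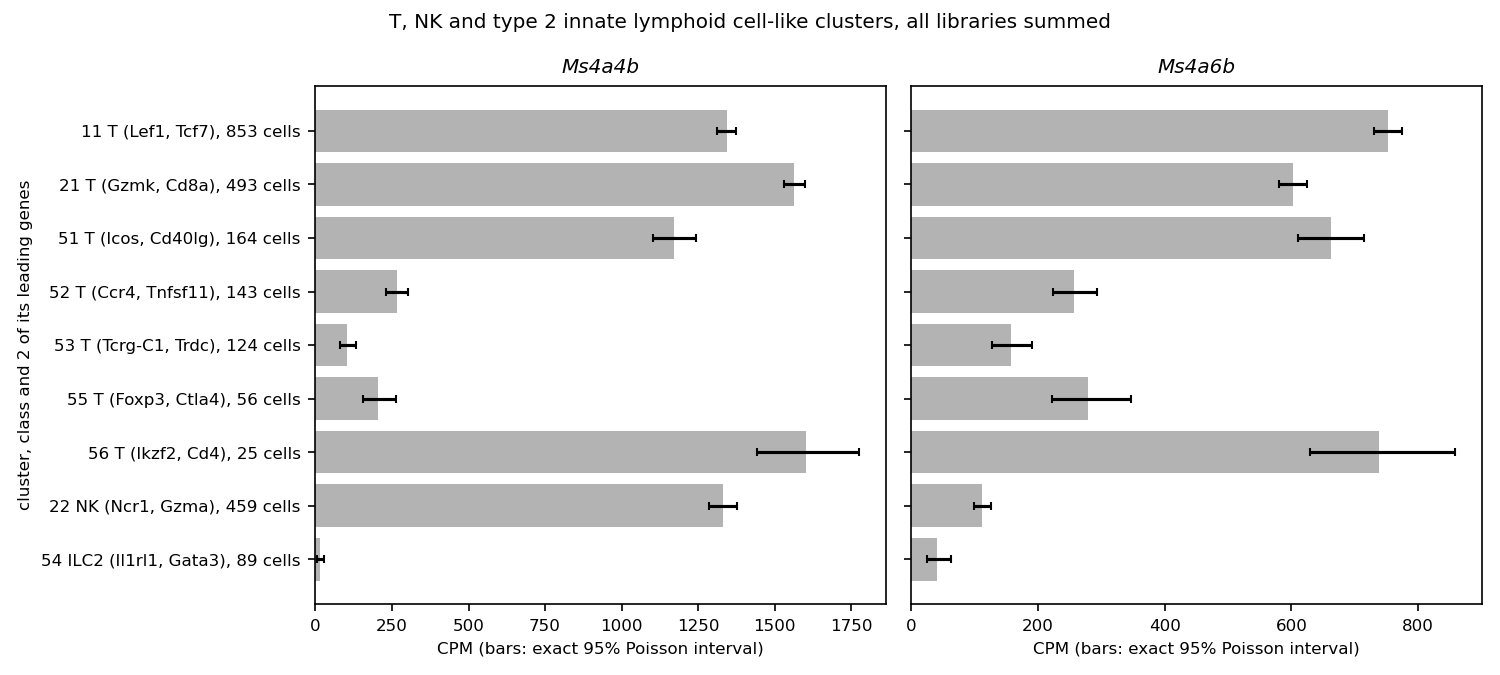
CPM of Ms4a4b and Ms4a6b in the T, NK and type 2 innate lymphoid cell-like clusters (rows, with cells and leading genes), with exact 95% Poisson bars and all libraries summed. Clusters 11, 21, 51 and 56 were high for both genes, clusters 52, 53 and 55 were low for both, and NK cell-like cells were high for Ms4a4b only.

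After thinning to 1500 UMIs, Ms4a4b was found in 82.1% of NK and 70.3% of T cell-like cells and in 0.313% of alveolar macrophage-like cells, with 96.5%, 86.1% and 1.54% before. The median depths were 4926, 6292.5 and 14953.5 UMIs. Tnfrsf18, which encodes GITR, was not highest where Ms4a4b was. It had 232 CPM in type 2 innate lymphoid cell-like cells, the class with 14.1 of Ms4a4b, and 82.3 in T cell-like cells.

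Ms4a6b was the member that T cells and monocytes shared. It had 623 CPM in T cell-like cells (610 to 636), 515 in classical monocyte-like cells (505 to 524) and 299 in nonclassical monocyte-like cells. The last value joined cluster 20 at 496 CPM and cluster 8 at 193. By library T cell-like cells ran from 405 to 808 CPM with a median of 631, and classical monocyte-like cells from 292 to 639 with a median of 551. The ranges overlapped, yet within each library T cell-like cells were the higher, in 7 of 7. Thinned, it was found in 54.3% of T cell-like, 50.2% of classical monocyte-like and 1.20% of endothelial cell-like cells, against 85.8%, 93.2% and 4.27% before, at median depths of 6292.5, 10405 and 5170 UMIs.

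Ms4a6c was highest in monocytes. Classical monocyte-like cells had 1295 CPM (1280 to 1310) and nonclassical ones, the patrolling kind, 827 (811 to 842). Classical monocyte-like cells ran from 1003 to 1490 CPM over libraries and nonclassical from 664 to 1006, and the first were the higher in 7 of 7 libraries. Type 2 dendritic cell-like cells had 553 CPM and C1q macrophage-like cells 338. The nonclassical class was mixed: cluster 20 had 1125 CPM and all 6 classical markers, summing to 6925 CPM against 9578 in classical monocyte-like cells, and cluster 8, the larger, had 666. In thinned cells Ms4a6c was found in 81.8% of classical monocyte-like and 2.09% of endothelial cell-like cells, against 99.0% and 5.20% before thinning.

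Ms4a4c, a relative of Ms4a4b, had its highest level in classical monocyte-like cells at 604 CPM (594 to 614), then in type 2 dendritic cell-like cells at 277, nonclassical monocyte-like cells at 253 and B cell-like cells at 178. The type 2 dendritic and nonclassical monocyte-like levels differed by little more than their counting error. The nonclassical level joined unlike clusters, with 534 CPM (514 to 556) in cluster 20 and 102 (95.2 to 109) in cluster 8. Classical monocyte-like cells ran from 398 to 726 CPM over libraries with a median of 629. They were the highest class in 6 of 7 libraries, and in library 1 type 2 dendritic cell-like cells had 408 CPM against 398. B cell-like cells ran from 50.9 to 219 CPM. Over lineages Ms4a4c was about even, with 167 CPM in the B lineage and 164 in monocytes and macrophages, a fold of 1.02 (0.990 to 1.05). In thinned cells 52.6% of classical monocyte-like, 23.2% of B cell-like and 0.831% of endothelial cell-like cells had it, against 93.0%, 55.2% and 2.63% before thinning.

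Ms4a4b and Ms4a4c, which share most of their promoter letters, thus had unlike classes, with Ms4a4c at 45.8 CPM in T cell-like and 20.2 in NK cell-like cells and Ms4a4b at 38.6 in classical monocyte-like cells. Some members share stretches at their transcript ends, where this kit reads, with other genes. Of the 50-base stretches in the last 500 bases of their transcripts, 11.1% for Ms4a4c, 7.76% for Ms4a6c, 4.31% for Ms4a6b and 4.22% for Ms4a4b were also found in another gene, and 0 for the other 6 members. The other genes included relatives, Ms4a4b for Ms4a4c and Ms4a6b for Ms4a6c among them, and genes outside the family, such as Prdm11 for Ms4a6c. The shares were not split between these. Whether the shared stretches affect low levels of 1 of these members in the leading class of its relative was not tested.

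Part of the neutrophil-like signal sat in 1 cluster as well. Cluster 32 had 846 CPM of Ms4a6c and 328 of Ms4a4c with all 6 classical monocyte markers (5271 CPM in sum), while the neutrophil-like cluster 7 had 4.05 and 1.13 and cluster 14 had 10.2 and 9.84. The classical monocyte list summed to 225 and 467 CPM in clusters 7 and 14. Whether cluster 32 holds doublets was not tested.

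Ms4a6d, whose product is known to bind the complement receptor Vsig4, was spread over dendritic cells, macrophages and monocytes. Type 2 dendritic cell-like cells had 219 CPM (209 to 230), Arg1 and Mmp12 macrophage-like cells 193 (185 to 201), C1q macrophage-like cells 177 (169 to 186), classical monocyte-like cells 159 (154 to 164) and alveolar macrophage-like cells 126 (123 to 129). The intervals of both macrophage classes at the head of this order overlapped, and the libraries gave no fixed order. Type 2 dendritic cell-like cells were the highest class in 3 of 7 libraries, and without library 1 their log2 ratio over Arg1 and Mmp12 macrophage-like cells turned from 0.19 to -0.18.

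Ms4a6d differed by library kind. In type 2 dendritic cell-like cells it had 348, 203, 92.5 and 334 CPM in libraries 1, 2, 3 and 7, and 59, 7.78 and 25.1 in libraries 4, 5 and 6. Summed, the lung-transcript libraries had 253 CPM (240 to 266) and the others 33.0 (23.2 to 45.4). Ms4a6b and Ms4a6c went the other way, with 59.1 to 138 against 246 to 407 CPM for Ms4a6b and 353 to 555 against 812 to 997 for Ms4a6c. None of these ranges overlapped. In this class those of Ms4a4b, Ms4a7 and Ms4a8a did not overlap either, while those of Ms4a1, Ms4a2, Ms4a3 and Ms4a4c did. The share of all genes without overlap was not computed, so this is not shown to be particular to these members. The cells of the class were not the same in the library kinds. Clusters 45, 46 and 49 gave most of the class in lung-transcript libraries and cluster 48 in hemoglobin-rich ones. Clusters 45 and 46, with Cd209a and Mgl2, had 360 and 253 CPM of Ms4a6d. Clusters 49 and 48 had 47.3 and 28.4 CPM of it, with 288 and 286 of Ms4a6b and 820 and 877 of Ms4a6c. The parts of cluster and library kind in these levels were not tested. Classical monocyte-like cells had 96.7 to 258 CPM of Ms4a6d in lung-transcript and 126 to 182 in hemoglobin-rich libraries, ranges that overlapped.

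Vsig4 was highest in a class that shares Ms4a6d. It had 20.9 CPM in C1q macrophage-like cells and 0.262 in Arg1 and Mmp12 macrophage-like cells, a ratio whose interval runs from 27.0 to 391, on 203 and 3 UMIs. All 212 UMIs of Vsig4 lay in 25 barcodes, and its level in C1q macrophage-like cells ran from 0 to 59.6 CPM over libraries. In thinned cells Ms4a6d was found in 22.3% of type 2 dendritic cell-like and 0.12% of B cell-like cells, against 53.7% and 0.318% before, at median depths of 12715 and 5066 UMIs.

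Ms4a7 was highest in C1q macrophage-like cells, a class named from C1qa and Csf1r among others. They had 609 CPM (594 to 625), and Arg1 and Mmp12 macrophage-like cells 202 (193 to 210), a fold of 3.02 (2.88 to 3.17), or 1.60 on the log2 scale. Without library 1 the log2 ratio was 2.31, past the limit of 4-fold. Alveolar macrophage-like cells were low, at 18.6. In libraries 1, 2, 3 and 7 C1q macrophage-like cells had 585, 849, 379 and 360 CPM and Arg1 and Mmp12 macrophage-like cells 284, 126, 46.5 and 130, so that each library kept the order and the ranges did not overlap. The hemoglobin-rich libraries held too few such cells. As a lineage, monocytes and macrophages had 88.9 CPM and endothelial cell-like cells 12.7, 6.98-fold apart (6.22 to 7.86).

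Most of the endothelial value came from cluster 23, shallow barcodes with a median of 937.5 UMIs, which had 162 CPM of Ms4a7. There 2 of 6 C1q macrophage markers were found in at least 10% of cells, summing to 2298 CPM against 13196 in C1q macrophage-like cells. Ms4a7 was found in 68.4% of C1q macrophage-like cells and in 46.2% after thinning, and in 0.656% and 0.140% of B cell-like cells, at median depths of 10609 and 5066 UMIs. In the 263 eosinophil-like cells, a class of median depth 564 UMIs with 216 of its cells from library 7, it had 0 of 263863 UMIs, which allows a level of up to 11.4 CPM. Ms4a6c had 30.3 CPM in that class and Ms4a8a 26.5, on 8 and 7 UMIs.

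Ms4a8a, known from alternatively activated macrophages, was highest in the macrophages of the airspace. Alveolar macrophage-like cells had 279 CPM (275 to 284), classical monocyte-like cells 89.9 and Arg1 and Mmp12 macrophage-like cells 85.1 (79.9 to 90.7), and the intervals of the last pair overlapped. In libraries 1, 2, 3 and 7 alveolar macrophage-like cells had 405, 209, 289 and 291 CPM. Classical monocyte-like cells ran from 80.5 to 133 CPM over all 7 libraries, below every alveolar value. Its clusters 3, 44 and 33 had 284, 269 and 225 CPM. Ms4a7 and Ms4a8a thus ran opposite in the macrophage classes, with 18.6 and 279 CPM in alveolar and 609 and 28.4 in C1q macrophage-like cells. After thinning 33.6% of alveolar macrophage-like and 0.10% of B cell-like cells had Ms4a8a, against 86.8% and 0.298% before, at median depths of 14953.5 and 5066 UMIs.

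**Figure D4:**
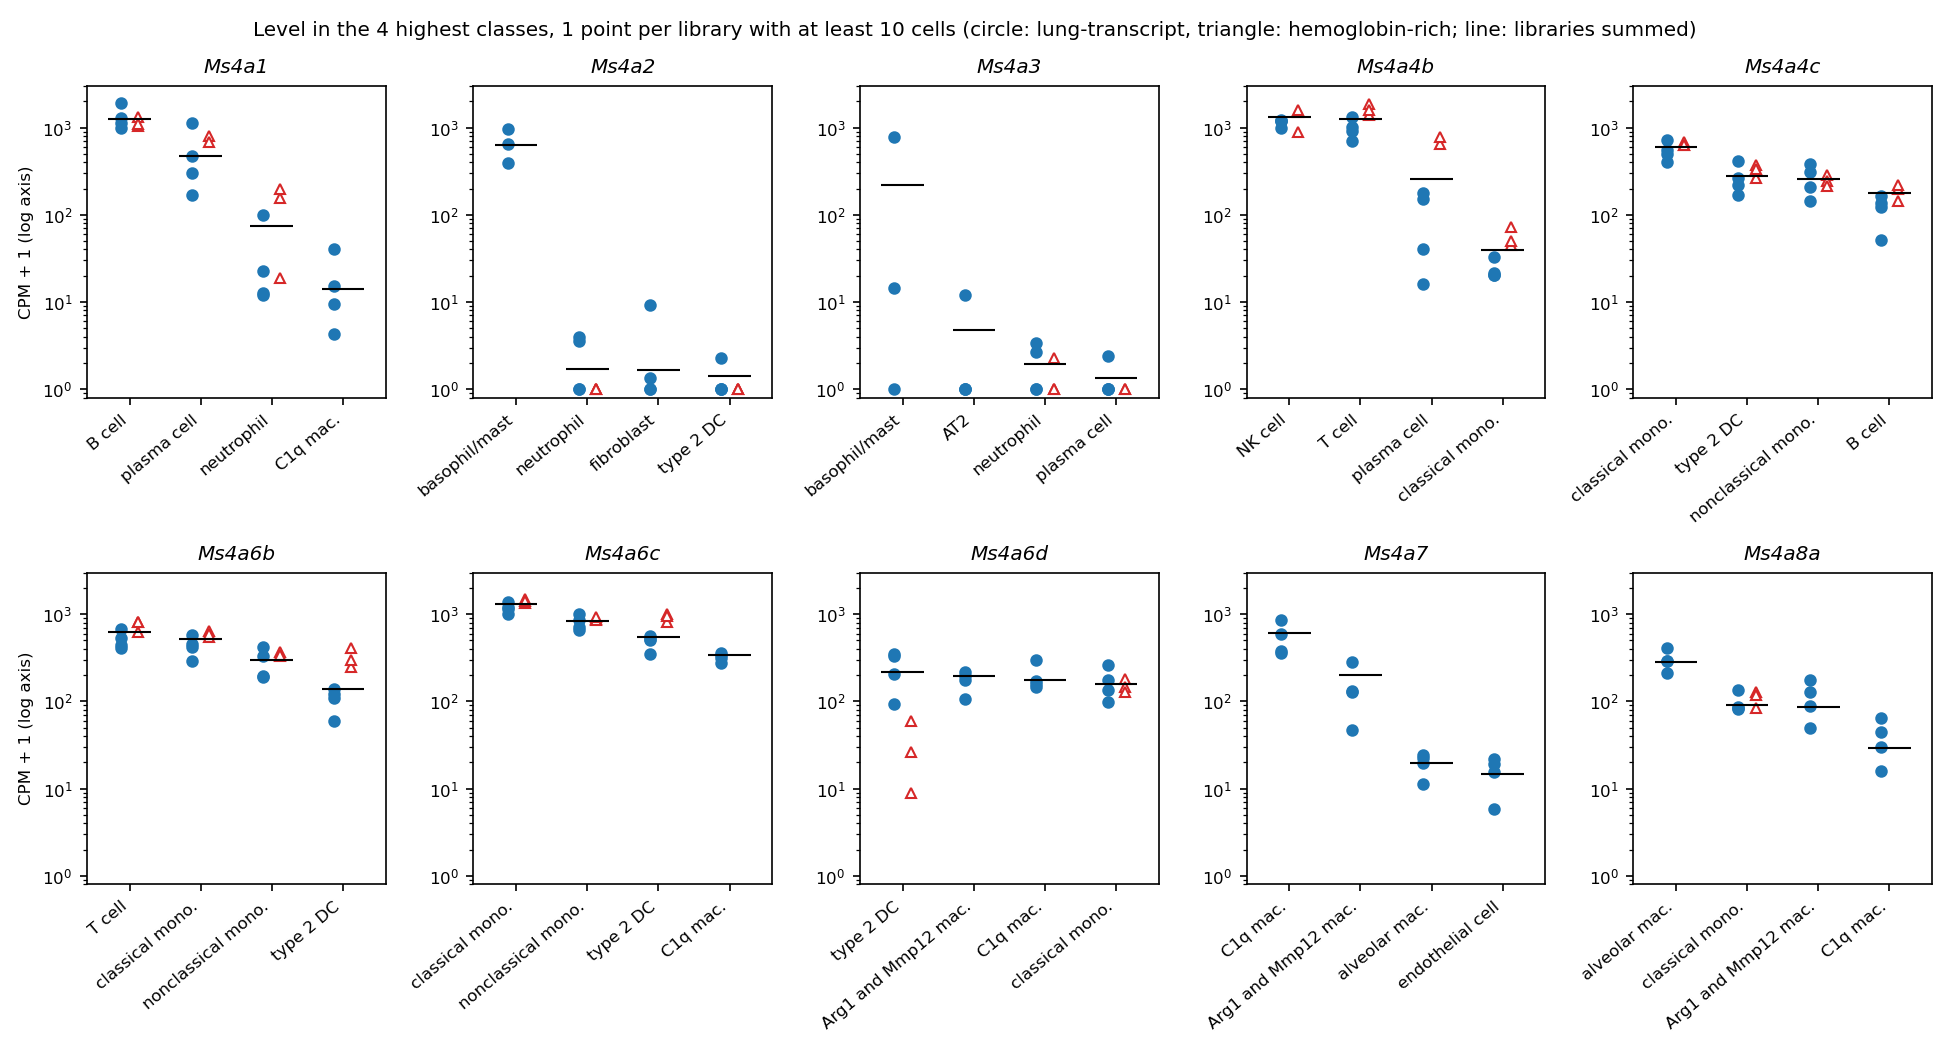
Levels of the members in their 4 highest classes, as CPM + 1 on a log axis, with 1 point per library of at least 10 cells (circles for lung-transcript and triangles for hemoglobin-rich libraries) and a line for all libraries summed. Ms4a6c in classical monocyte-like cells varied little (1003 to 1490 CPM), while Ms4a6d in type 2 dendritic cell-like cells split by library kind (92.5 to 348 against 7.78 to 59).

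Several members were read in the same cells. Thinned to 1500 UMIs, classical monocyte-like cells had a mean of 2.24 of the 10 genes per cell, 41% of them had at least 3, and the most in a cell was 6. T cell-like cells had a mean of 1.36, type 2 dendritic cell-like cells 1.30, and nonclassical monocyte-like and C1q macrophage-like cells 1.28 each. B cell-like, NK cell-like and basophil or mast cell-like cells had means near 1, at 1.15, 1.06 and 1.01. Erythroid cell-like cells had a mean of 0.0295 and ciliated cell-like cells 0.0265, the lowest means. Ms4a8a was still read in the ciliated cell-like cluster, at 8.30 CPM on 17 UMIs in 4 of 113 cells. The other epithelial classes had similar levels, with 6.56 CPM on 45 UMIs in alveolar type 2 cell-like and 6.12 on 29 UMIs in club cell-like cells.

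**Figure D5:**
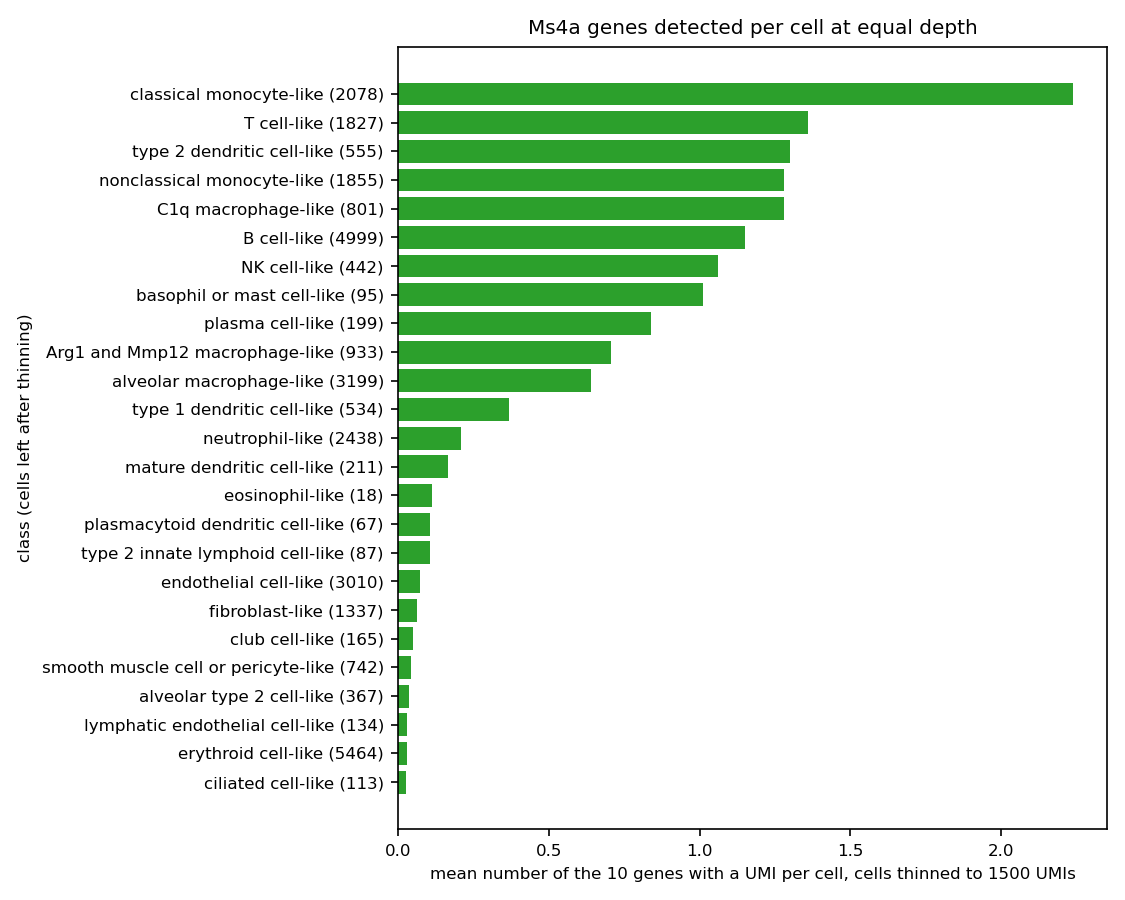
Mean number of the 10 genes with at least 1 UMI per cell (horizontal axis) in each class (rows, with cells left after thinning), every cell thinned to 1500 UMIs. Classical monocyte-like cells led with 2.24, and endothelial cell-like cells lay at 0.0701.

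The other 9 Ms4a genes were mostly silent in these libraries. Ms4a5 and Ms4a13 had 0 UMIs, Ms4a10, Ms4a12 and Ms4a18 had 1 each and Ms4a15 had 14, of which 9 were in NK cell-like cells. Ms4a14, beside Ms4a7 on the chromosome, had 23 CPM in C1q macrophage-like cells and 3.23 in Arg1 and Mmp12 macrophage-like cells, 7.13-fold apart. Ms4a4d was the member of stroma, with 151 CPM in fibroblast-like cells and 66.5 among smooth muscle cells or pericytes, and as a lineage 150 times the next. Ms4a4a had 7.52 CPM in classical and 4.56 in nonclassical monocyte-like cells. Of these 9 genes, 3 had at least 50 UMIs, and 1 of the 3 was called over classes and 1 over lineages, against 11.1% and 17.8% of genes. Tmem176a and Tmem176b, distant relatives, were broad, with 1482 and 1318 CPM in fibroblast-like cells and 848 and 931 in C1q macrophage-like cells, and neither was called.

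For each member the genes outside the family with the most similar pattern were taken by Pearson's r of log2(CPM + 1) over the 25 classes. These r describe classes that share libraries and depth, and are no test. Ms4a1 was most like Cd79a (0.966), Pax5 (0.957) and Gm31243 (0.954), the first a chain of the B cell receptor and the second a B cell transcription factor, both in the list that named the class. Ms4a2 was most like Mcpt8 (0.997), a basophil protease, Prss34 (0.992) and Fcer1a (0.991). Mcpt8 and Prss34 are in the list that named the basophil or mast cell-like class. Outside that class Ms4a2 had at most 0.702 CPM, so its r rest on 1 class. Ms4a3 was most like Ctsg (0.974) and Mpo (0.964), then Cyp11a1 (0.952). Its class levels rest mostly on the 2 barcodes with granulocyte progenitor markers described above, which also held many UMIs of Ctsg and Mpo. Cyp11a1 was a leading gene of the clusters of the basophil or mast cell-like class, where 1 of these barcodes was placed. The r of Ms4a3 were not computed without those barcodes.

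Ms4a4b was most like Txk (0.927), a T cell kinase, and 2 unnamed genes, Gm37387 (0.907) and Gm2682 (0.906). Ms4a4c was most like Gm15987 (0.925) and Mx1 (0.852), an interferon-induced gene, and then Zc3h12d (0.842). Ms4a6b had no close match, with Susd3 at 0.794, Tnfaip8l2 at 0.785 and Bin2 at 0.781. Ms4a6c was most like Cd300a (0.902), an inhibitory receptor of myeloid cells, Gpr141 (0.879) and Fcer1g (0.867). Ms4a6d was most like the lectin gene Clec4b1 (0.920), Ticam2 (0.907), an adaptor of Toll-like receptors, and Guca1a (0.901). Ms4a7 was most like Dppa3 (0.926), the phospholipase Pla2g2d (0.888) and Fabp7 (0.875), and Ms4a8a like Chil3 (0.864), a chitinase-like gene that was itself highest in Arg1 and Mmp12 macrophage-like cells, Tnfrsf21 (0.853) and Hmox1 (0.851), the heme-degrading enzyme.

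Within the family the closest pair was Ms4a2 with Ms4a3 (r = 0.95 over 25 classes), with most Ms4a3 UMIs of the basophil or mast cell-like class in the progenitor barcode. This r was not computed without that barcode. Ms4a7 and Ms4a14 came next (0.87), then Ms4a6c and Ms4a4a (0.78), Ms4a6c and Ms4a6d (0.77), Ms4a4c and Ms4a6b (0.72), Ms4a6d and Ms4a8a (0.71) and Ms4a4b and Ms4a6b (0.70). Neighbours on the chromosome were not always alike. Ms4a4b starts 16306 bases after the end of Ms4a4c and ends 2310 bases before Ms4a6c, and the 3 genes in this run were highest in classical monocyte-like (Ms4a4c and Ms4a6c) and NK cell-like cells (Ms4a4b).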

How the data were processed

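The deposited single-cell values are UMI counts per gene and barcode, as whole numbers, which the authors made with Cell Ranger and STAR. GEO's processing notes name mm10. The study's methods state that reads were down-sampled as required. The matrix precedes the authors' cell filter, and kept barcodes hold 291580908 UMIs. Levels are shares of those UMIs and not length-corrected, so members are compared across classes and not with each other.

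The members and marker lists were chosen with earlier results of these data known, and how lists were scored was settled after clusters had been seen once. Log values per 10000 UMIs of the 2000 most variable genes, Ms4a genes left out, gave 30 principal components. After mutual nearest neighbor alignment of the libraries, cells were clustered on 20 neighbors (leidenalg 0.10.2, resolution 0.8). An unnamed cluster of at least 100 cells was split. A class name needed at least 3 markers in 10% of the cells, and a class at least 50 cells. Genes with at least 50 UMIs entered the call, by a limit of 4-fold. Named genes are the members, the other Ms4a genes, the relatives Tmem176a and Tmem176b, known partners and the 3 genes most like each member. Doublets were not removed, and Scrublet (scanpy 1.11.5) was an alternative. Poisson intervals of levels and binomial intervals of shares are exact at 95%. A count of 0 was read as allowing 3. The calling step was tested on simulated data with fewer groups than the classes here and at least 500 UMIs per gene. That range does not cover Ms4a2 and Ms4a3. Python 3.11.15, numpy 2.4.6, scipy 1.17.1, pandas 2.3.3, Biopython 1.88 and matplotlib 3.10.9 were used. No amino acid sequence is given, because no protein table was used here.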

Additional observations from a re-analysis of the deposited data

How the results depend on the processing

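Over classes, 2 of 10 members were called in the main setting, against 11.1% of genes. The count moved to 1 of 9 (4.05% of genes) in hemoglobin-rich libraries alone, where the basophil or mast cell-like class was left out for too few cells. It was 6 of 10 (25.6%) at a limit of 2-fold and 0 of 8 (7.24%) with at least 500 UMIs asked of a gene. Without the 8 barcodes with granulocyte progenitor markers it was 1 of 9 (11.1%). Leaving out each library in turn gave 1 to 3 over classes, against 10.8% to 11.2% of genes. Over lineages this gave 5 to 7, against 16.6% to 17.7%. The lowest counts came without library 3. Over lineages the other settings gave 4 to 7, against 8.17% to 31.7% of genes. Ms4a1 was called over classes at up to 5% of mt- UMIs, within 2 standard deviations of depth, without alignment and with the marker gate, and Ms4a7 without library 1, at up to 5% of mt- UMIs, within 2 standard deviations of depth, at resolution 1.5, with the marker gate and after thinning. The log2 ratio of Ms4a4b in NK over T cell-like cells (0.08) turned to -0.10 at 5% mt- UMIs, -0.22 at resolution 1.5 and with Ms4a genes used in clustering, -0.04 as a mean over libraries, -0.20 in hemoglobin-rich libraries and -0.05 without library 1 (to 0.15 without library 5). That of Ms4a6d in type 2 dendritic cell-like over Arg1 and Mmp12 macrophage-like cells (0.19) turned to -0.19 as a mean over libraries and -0.18 without library 1 (to 0.29 without library 3). Without alignment no type 2 dendritic cell-like class entered, and Arg1 and Mmp12 macrophage-like cells were highest for Ms4a6d (189 CPM), with mature dendritic cell-like cells next. Type 2 dendritic cell-like cells stayed highest in 17 of 21 settings, and the setting without alignment is not among the 17. The log2 ratio of Ms4a3 in basophil or mast cell-like over alveolar type 2 cell-like cells (5.84) turned to -0.15 with the marker gate, at 3.58 and 3.97 CPM. The gate names each barcode by at least 3 of its own markers. The barcode with 96 UMIs of Ms4a3 had only Hdc of the basophil or mast cell list, so it was not in that class there. Other parts of the change were not tested. Among levels and log2 ratios, 114 and 105 values kept within counting error, 91 and 79 moved and 9 ratios reversed. Ms4a1, Ms4a4c, Ms4a6b and Ms4a6c kept their highest class in 21 of 21 settings and Ms4a4b in 15. Depth limits genes of few UMIs, Ms4a2 and Ms4a3. No paired analysis was possible because the libraries carry no group or replicate, and no test was run.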

Other observations

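Ms4a transcripts were also present in cells that no marker list named. The unnamed cluster 38, 80 cells of median depth 12623.5 UMIs, had 438 CPM of Ms4a1 (398 to 480), 342 of Ms4a4c (307 to 379) and 722 of Ms4a6c (671 to 776). Ms4a1, highest in B cell-like cells, thus stood beside members highest in classical monocyte-like cells. The B cell list scored highest there, while Eno3, Adgre4 and Treml4 of the nonclassical monocyte list were among the leading genes of the cluster. The unnamed cluster 37, 98 cells of median depth 18624 UMIs, had 154 CPM of Ms4a8a (137 to 173), 102 of Ms4a6d (87.6 to 117), between 40.3 and 61.4 of Ms4a6c (the interval) and 28.3 of Ms4a7 (21.1 to 37.1). Whether these cells are doublets was not tested.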
